A study of Mus musculus with 764 samples.

Results

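Among IL-10-producing CD4+ T cells of the mouse spleen, 65 cells with high Cxcr5 reads and no read of Foxp3 or Ccr7 were compared with spleen cells without a Cxcr5 read under the same limits. CXCR5 is the chemokine receptor that guides T cells into B cell follicles. The cells came from mice carrying an IL-10 eGFP reporter and a Foxp3 mRFP reporter, and all of them had been treated with an antibody against CD3, which activates T cells broadly. IL-10+ CD4+ T cells were sorted one per well and their transcripts read by SMART-seq2, which covers whole transcripts and uses no molecular barcodes. The 65 cells are part of 764, of which 190 came from small intestine and the rest from spleen. Cells with Foxp3 mRNA were part of the sort, untreated mice were not analysed here, and the labels name neither the animals nor their age. Spleen therefore counts as 1 sample: cells are not replicates, no p-value is given, and the intervals printed with shares of cells are exact at 95%, by the Clopper-Pearson method, and cover counting error only.

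T follicular helper (Tfh) cells are CD4+ T cells that enter B cell follicles through CXCR5 and help germinal centre B cells, chiefly through IL-21, CD40 ligand and the signalling adaptor SAP, encoded by Sh2d1a. Their programme depends on the transcriptional repressor BCL6, which is opposed by BLIMP-1 (Prdm1) and by ID2, and TCF-1 (Tcf7) acts upstream of BCL6. Mature Tfh cells carry abundant PD-1 (Pdcd1) and ICOS. TCF-1 and SLAMF6 are also known from memory-like T cells that are not follicular, and IL-10 can be made by follicular as well as by type 1 regulatory T cells.

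The cells were chosen on their own Cxcr5 reads, so those values are a description. Spleen cells needed at least 160000 reads over genes, which 30 did not reach, and no read of either Foxp3 or Ccr7. Of the eligible cells, 65 (27.4%) had at least 10 Cxcr5 reads, at most 2048, 37 had 1 to 9 and the others had 0. The 3 cells nearest to the limit had 15, 26 and 39 reads, and the highest 3 outside it had 8, 6 and 5, so the limit of 10 fell in a gap. The 65 cells were spread over the spleen wells, with 13 in well columns 1 to 12 of p1, 31 in columns 13 to 24 of p1 and 21 on p2, which is 25%, 27.2% and 29.6% of the eligible cells there. The cells without a Cxcr5 read numbered 26, 68 and 41 in the same sets. The plate code and well are all that the labels give to separate the cells, and every ratio was also computed within these 3 sets of wells.

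Depth was alike in both groups. Total reads had a median of 348622 (168588 to 526166) in the Cxcr5-high cells and 344291 (162801 to 622997) in the cells without a Cxcr5 read. Fewer genes were detected in the Cxcr5-high cells, with a median of 3022 against 3658, and cyclone, a cell cycle classifier, called fewer of them S or G2M, 7 of 65 (10.8%, 4.44% to 20.9%) against 31.9% (24.1% to 40.4%). Among cells called G1 the medians were 2985 and 3374.5 genes. Every ratio below is log2 of (mean CPM of the Cxcr5-high cells + 1) over (mean CPM of the cells without a Cxcr5 read + 1), where CPM is a gene's reads scaled to a total of 1000000 in every cell, and 1 on this scale is 2-fold. Shares are of cells with at least 10 reads of a gene, since many cells carried only a few reads of abundant genes: Gzmb had a read in 35 of the 65 cells and 10 or more in 9.

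The name follicular held for some of the markers fixed for it and not for others. Il21 and Tox2 were higher in the Cxcr5-high cells, Sh2d1a was close to equal, Pdcd1 was lower, and Bcl6 was at or near 0 in nearly all cells of both groups. Il21, the cytokine that drives germinal centre B cells, ran from 0 through a median of 193.95 to 2811 CPM in the Cxcr5-high cells and from 0 through a median of 37.3 to 2224 CPM in the others. The groups overlapped over most of this range, but 52 of 65 (80%, 68.2% to 88.9%) had at least 10 reads against 53.3% (44.6% to 61.96%) of the others, and the ratio was 1.18. Tox2, a transcription factor of the TOX family tied to the Tfh programme, had at least 10 reads in 30 cells (46.2%) against 31 (22.96%), with means of 80.5 and 36.7 CPM. Both were higher within each set of wells, by 0.75, 1.03 and 2.07 for Il21 and by 0.67, 0.65 and 2.23 for Tox2 in columns 1 to 12 of p1, columns 13 to 24 of p1 and p2, the order used throughout. The difference was widest on p2.

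Bcl6 reads were seen in 10 of 65 Cxcr5-high cells (15.4%, 7.63% to 26.5%) and in 8 others (5.93%, 2.59% to 11.3%), and 2 cells in each group had at least 10. The means were 4.19 and 0.857 CPM, under the 10 CPM required for a gene to be counted here, and 1 cell held 61.5% of the Bcl6 reads of the Cxcr5-high cells. Leaving out the highest cell of each group lowered the ratio from 1.48 to 0.77. Sh2d1a had means of 202.1 and 161.8 CPM, and 33 of 65 (50.8%) against 54.8% of the others had at least 10 reads. Pdcd1 ran from 0 through a median of 338.2 to 6637 CPM in the Cxcr5-high cells and from 0 through a median of 722 to 7104 CPM in the others, a ratio of -0.82, and it was lower within each set of wells (-0.89, -0.98 and -0.45). Counting Bcl6, Il21, Sh2d1a, Tox2 and Pdcd1, a Cxcr5-high cell had reads of 2.97 of the 5 on average (SD 1.05) and a cell without Cxcr5 of 2.61 (SD 1.01). The 20 cells without Cxcr5 that also had no Cxcr6 read, a subset chosen after seeing the data, gave ratios of -0.38 for Sh2d1a and 0.24 for Pdcd1, the reverse of those above. The cells are therefore named by their rule, as Cxcr5-high cells.

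**Figure D1:**
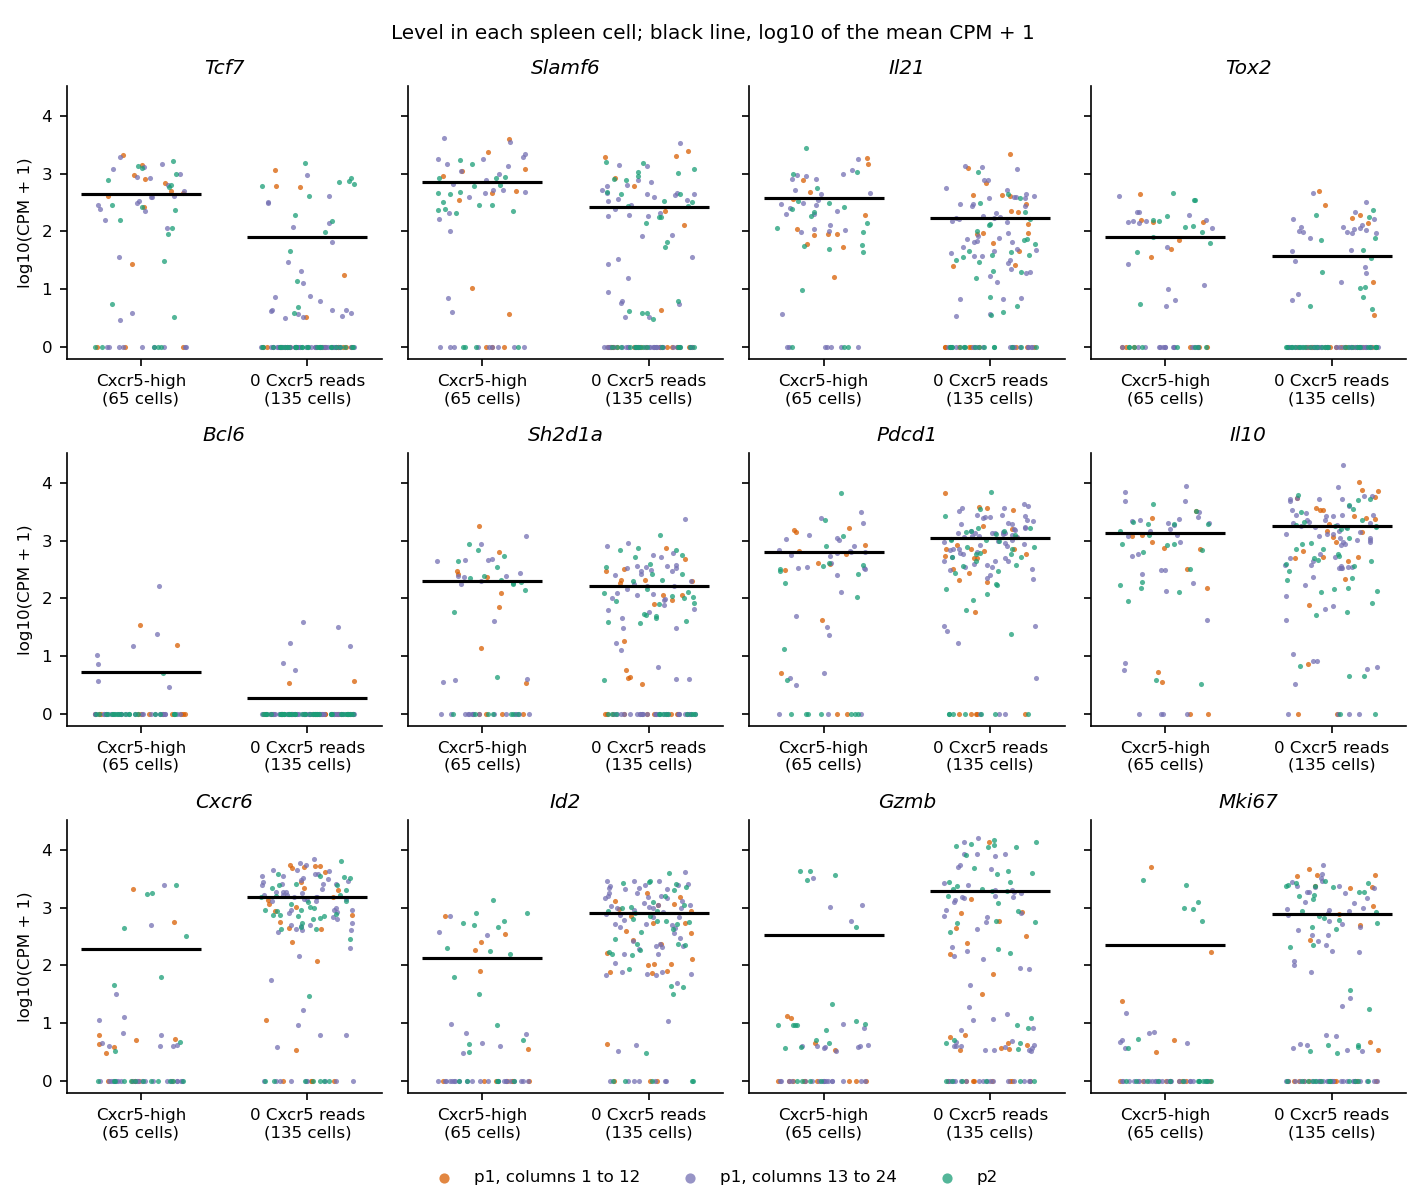
Each point is 1 spleen cell, coloured by its set of wells, in the 65 Cxcr5-high cells (left) and the cells without a Cxcr5 read (right). The y axis is log10(CPM + 1) and the black line is the mean CPM on that scale. Tcf7, Slamf6, Il21 and Tox2 had more points above the low layer on the left, Cxcr6, Id2, Gzmb and Mki67 on the right, and Bcl6 was at or near 0 in nearly all cells of both.

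Over all genes, 8379 had a mean of at least 10 CPM over both groups. Of these, 4.67% were at least 2-fold higher in the Cxcr5-high cells with the same sign on p1 and p2, and 10.2% were at least 2-fold lower, around a median ratio of -0.028. A list of genes is read against these shares, and the lists were not tested. Of 17 follicular surface and signalling genes in the table, 16 reached 10 CPM, of which 5 were at least 2-fold higher and 0 lower, with a median of 0.64. Of 15 follicular transcription factors, 12 reached 10 CPM, with 3 higher, 0 lower and a median of 0.50. Of 14 genes that oppose the follicular fate or mark other homing routes, 1 was higher and 4 were lower, with a median of -0.43. That median was -0.60 on p1 but -0.084 on p2, where all genes tested had medians of -0.036 and -0.054. Of 24 Th1 and cytotoxic genes, 1 was higher and 11 were lower, with a median of -0.97.

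**Figure D2:**
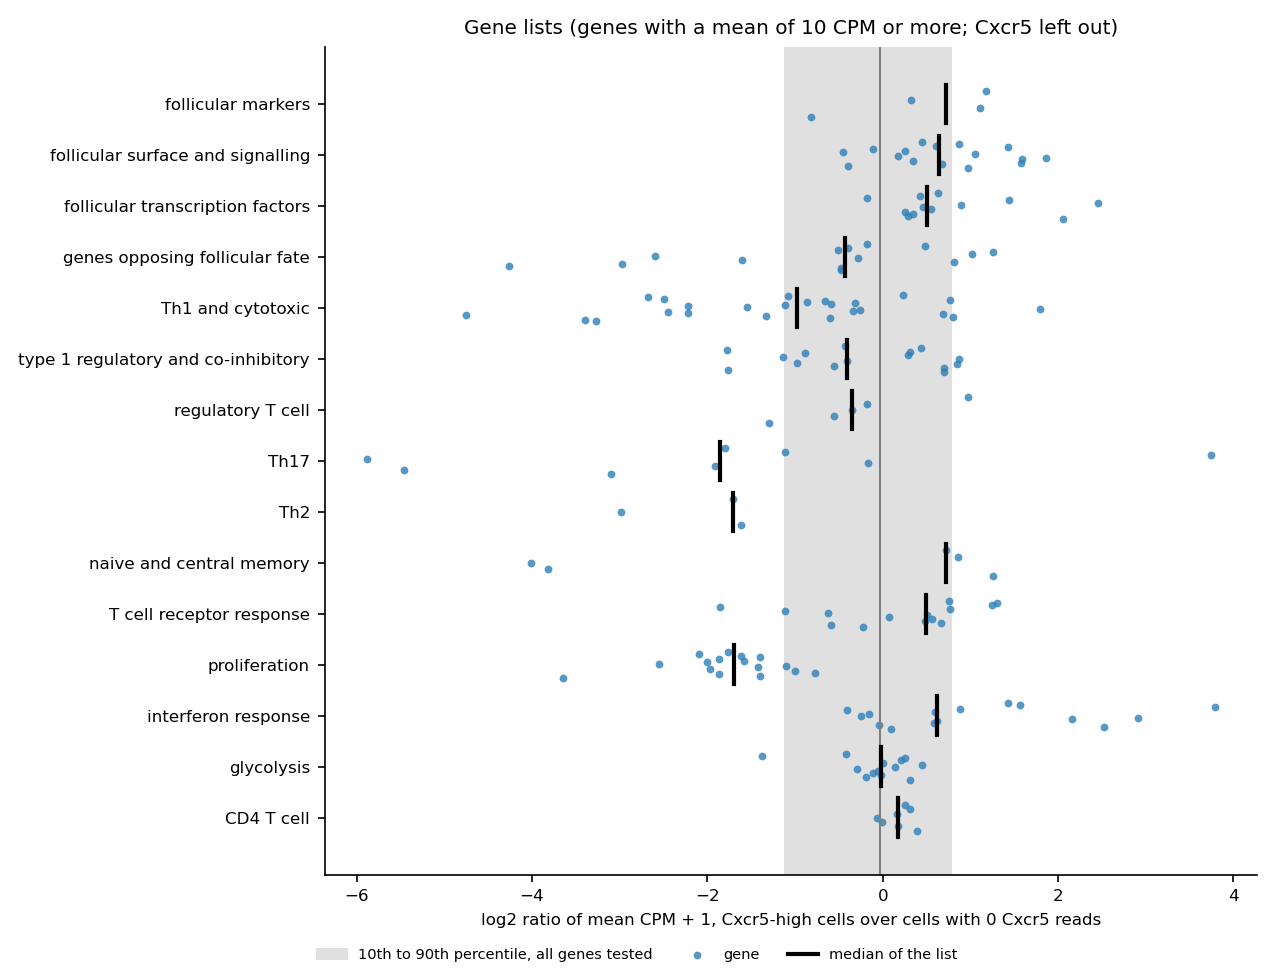
Each point is 1 gene of a list, placed by its log2 ratio of mean CPM + 1, Cxcr5-high cells over cells without a Cxcr5 read (x axis), and black bars are list medians. The grey band holds the middle 80% of all genes tested, and among the lists drawn the medians are 0.72 for the follicular markers without Cxcr5, -1.69 for proliferation and -1.86 for the Th17 list.

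Among the follicular transcription factors that reached 10 CPM, Tcf7, which encodes TCF-1, had the largest ratio (2.45). Its level ran from 0 through a median of 260.2 to 2129 CPM in the Cxcr5-high cells and from 0 through a median of 0 to 1525 CPM in the cells without Cxcr5. At least 10 reads were found in 42 of 65 (64.6%, 51.8% to 76.1%) against 16.3% (10.5% to 23.6%) of the others, and mean CPM was 5.48-fold higher. Its ratio was 2.66, 3.50 and 1.44 in the 3 sets of wells, but 0.54, under 2-fold, against only the 20 cells without Cxcr5 and Cxcr6 reads. Lef1, the close relative of Tcf7, was at 69.5 against 36.9 CPM, a ratio of 0.89 that stayed under 2-fold. Bach2, a repressor that restrains effector differentiation, had at least 10 reads in 20 against 13 cells (30.8% and 9.63%), with a ratio of 2.06, or 0.67 against those 20 cells. Irf4, which is induced by T cell receptor signals and needed for both Tfh and effector cells, had a ratio of 1.44, and shares of 47.7% and 36.3% of cells with at least 10 reads.

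The other factors of the list were closer to each other. Maf, which supports both Il21 and Il10 transcription, was found in 98.5% and 91.9% of the cells of the 2 groups with a ratio of 0.42. Ratios were 0.63 for Tox, 0.55 for Nfatc1, 0.35 for Hif1a, 0.25 for Stat3 and 0.29 for Foxo1, all under 2-fold, and Batf, an AP-1 factor of early Tfh cells, was at -0.18. Ascl2, a driver of Cxcr5 in other settings, had no read in either group, and 0 of 65 cells leaves a limit of 4.62% at 3 counts. Cebpa, a basic leucine zipper factor, had at least 10 reads in 7 Cxcr5-high cells and 1 other cell. Its means were 19.3 and 0.448 CPM, a ratio of 3.81 that was above 0 in each set of wells (4.33, 3.66 and 3.93), but the mean over both groups together did not reach 10 CPM and the gene is not in the counts above.

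Of the follicular surface and signalling genes, Slamf6, Il6ra, Il6st, P2rx7 and Tnfsf8 were at least 2-fold higher. Slamf6, a homophilic receptor that signals through SAP and is carried by Tfh and by TCF-1+ memory-like cells, ran from 0 through a median of 444.5 to 4134 CPM, and from 0 through a median of 2.02 to 3416 CPM in the cells without Cxcr5. At least 10 reads were found in 45 of 65 (69.2%, 56.6% to 80.1%) against 39.3% (30.97% to 48.03%) of the others, and the ratio of 1.43 was above 0 in each set of wells (1.41, 1.87 and 0.71). Against only the 20 cells without Cxcr5 and Cxcr6 reads, the Slamf6 ratio was -0.032. Both chains of the IL-6 receptor were higher against all cells without Cxcr5. Il6ra, the ligand-binding chain, had at least 10 reads in 31 against 34 cells (47.7% and 25.2%, ratio 1.87), and Il6st, which encodes the signalling chain gp130, in 49 against 47 (75.4% and 34.8%, ratio 1.59). Against the 20 cells both were under 2-fold, at 0.38 for Il6ra and 0.55 for Il6st. IL-6 is a cytokine that induces Bcl6 and Il21 in CD4+ T cells.

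P2rx7, an ATP-gated channel that limits Tfh cell survival in the gut, had a ratio of 1.58, and a ratio of 0.87 against the 20 cells. At least 10 reads were found in 23 of 65 cells against 17.8% of the others. Tnfsf8, which encodes CD30 ligand, had means of 1399.5 and 674 CPM and a ratio of 1.05. Angptl2, a secreted angiopoietin-like protein, was just short of 2-fold (0.97), and the inhibitory receptor Btla was at 0.87, or -0.12 against the 20 cells without Cxcr5 and Cxcr6 reads. Icos, the costimulator of Tfh cells, was nearly universal, with 93.8% and 97.04% of the cells of the 2 groups and a ratio of 0.45. Cd40lg, the main T cell help molecule for B cells, was not higher: 21 of 65 (32.3%) against 39.3% of the others, with a ratio of -0.46. S1pr2, the receptor that keeps Tfh cells inside germinal centres, had at least 10 reads in 9 and 21 cells, and Cxcr4, which directs cells to the dark zone, in 3 and 9. S1pr2 and Cxcr4 were thus sparse in both groups, while Icos was abundant in both.

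Cytokine genes other than Il21 showed no common direction, with 1 of 5 B cell help genes that reached 10 CPM higher (Ltb), 1 lower (Lta) and a median of -2.11. The sign of this median differed between plates, at -2.09 on p1 and 0.22 on p2. Il10 itself, the gene behind the sort, was at 1355 CPM in the Cxcr5-high cells and 1833 CPM in the others, with at least 10 reads in 53 of 65 (81.5%) and 86.7% of the others. Its ratio of -0.44 was largest in columns 1 to 12 of p1 (-1.53, -0.16 and -0.19 in the 3 sets). Ltb, a lymphotoxin chain needed for lymphoid tissue structure, was higher (1.03), most in columns 1 to 12 of p1 (2.53, 0.45 and 0.51), and Lta, its partner, was detected with 10 or more reads in 1 and 6 cells, the single Cxcr5-high cell with 96.2% of the reads of its group. Il4 had at least 10 reads in 4.62% and 11.9% of the cells of the 2 groups, and its sign differed between p1 and p2. Il5 was carried by 8 cells without Cxcr5 and by 0 Cxcr5-high cells at this limit. Lif, a cytokine of the IL-6 family that signals through gp130, was among the 12 genes with the largest ratios, with 21 against 11 cells (32.3% and 8.15%) and a ratio of 2.04.

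By shares of cells, Cxcr6 and Id2 were the most widely separated of the genes that oppose the follicular fate, while Ccr2 had the larger ratio. Cxcr6, the receptor for CXCL16 on effector and tissue-homing T cells, ran from 0 through a median of 0 to 2516 CPM in the Cxcr5-high cells and from 0 through a median of 928 to 6902 CPM in the others. At least 10 reads were found in 12 of 65 (18.5%, 9.92% to 30.03%) against 80% (72.3% to 86.4%) of the others, and mean CPM was 7.85-fold lower. Id2, an inhibitor of E proteins that is repressed in Tfh cells, ran from 0 through a median of 0 to 1359.7 CPM, and from 0 through a median of 519.3 to 4254 CPM in the others, with 20 of 65 (30.8%, 19.9% to 43.4%) against 84.4% (77.2% to 90.1%) of the others and a 6.05-fold lower mean. Both were lower within each set of wells, by ratios of -3.07, -4.02 and -1.96 for Cxcr6 and -2.0, -4.29 and -1.61 for Id2. Ccr2, an inflammatory chemokine receptor, had at least 10 reads in 3 against 47 cells with a ratio of -4.27, or -5.48 without the highest cell of each group, since 1 Cxcr5-high cell held 50.9% of the reads. Il7r, the survival receptor of resting and memory T cells, had a ratio of -1.61.

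Other members of the same list did not follow. Prdm1, which encodes BLIMP-1, the antagonist of BCL6, was at 237.5 and 268.1 CPM, a ratio of -0.17 that was below 0 in both sets of p1, 0.82 on p2 and 0.20 against the 20 cells without Cxcr5 and Cxcr6 reads. Klf2 (0.48), S1pr1 (-0.39) and Selplg (-0.51), which act in egress and homing, were less than 2-fold apart. Gpr183, the oxysterol receptor that places T cells at the follicle edge, was at 1.02 over all cells and -0.12 on p2. Cxcr3, a Th1 homing receptor, was found at 10 or more reads in 53.8% and 46.7% of the cells of the 2 groups, with a ratio of 0.82 that was near 0 on p2 (-0.020).

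Promoter sequences are shown for 4 of the genes that differed, Slamf6 and Il21 on the higher side and Cxcr6 and Id2 on the lower, because TCF-1, whose gene was higher, binds DNA at T cell factor motifs. The sequences are from RefSeq (GRCm38.p6), 250 bases before to 50 after the gene start, written 5′ to 3′ on the gene's strand. Capitals mark the core letters CTTTGA or their reverse complement TCAAAG, which cannot overlap each other.
Slamf6 (chr1:171917212-171917511, plus strand): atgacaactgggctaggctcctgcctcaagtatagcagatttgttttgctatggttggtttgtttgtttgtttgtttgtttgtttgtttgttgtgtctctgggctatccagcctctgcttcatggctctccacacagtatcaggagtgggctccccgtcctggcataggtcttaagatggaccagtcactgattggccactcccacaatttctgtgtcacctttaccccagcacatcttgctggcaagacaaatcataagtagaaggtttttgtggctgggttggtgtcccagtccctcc
Il21 (chr3:37232587-37232886, minus strand): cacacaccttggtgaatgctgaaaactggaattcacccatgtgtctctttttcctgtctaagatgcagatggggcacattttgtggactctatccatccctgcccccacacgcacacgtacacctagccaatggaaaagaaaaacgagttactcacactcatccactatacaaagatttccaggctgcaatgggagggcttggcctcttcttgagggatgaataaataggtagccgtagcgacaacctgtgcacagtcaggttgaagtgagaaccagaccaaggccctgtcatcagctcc
Cxcr6 (chr9:123806227-123806526, plus strand): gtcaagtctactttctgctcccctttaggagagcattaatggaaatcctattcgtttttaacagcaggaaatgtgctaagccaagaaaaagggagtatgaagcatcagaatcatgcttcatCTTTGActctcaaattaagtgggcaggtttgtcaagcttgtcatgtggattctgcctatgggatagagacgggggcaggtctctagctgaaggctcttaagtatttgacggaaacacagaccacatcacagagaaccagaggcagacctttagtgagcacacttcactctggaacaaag
Id2 (chr12:25096043-25096342, minus strand): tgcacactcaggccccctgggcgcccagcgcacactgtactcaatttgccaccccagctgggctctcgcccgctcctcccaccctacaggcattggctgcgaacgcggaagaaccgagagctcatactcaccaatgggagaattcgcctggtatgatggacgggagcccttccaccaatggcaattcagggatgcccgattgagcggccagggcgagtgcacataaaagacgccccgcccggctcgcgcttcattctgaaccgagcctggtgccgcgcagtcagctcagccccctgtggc
Only the letters CTTTGA and TCAAAG were searched, not other forms of the T cell factor motif. This string was found once in the Cxcr6 window and not in the other 3. Of 32851 promoters in the table, 5257 (16%) held it on either strand, and so did 2 of the 11 matched genes among the 12 ranked highest and 1 of the 12 ranked lowest. These matches say only that the letters occur in the window.

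Th1 and cytotoxic effector genes were mostly lower in the Cxcr5-high cells. Gzmb, the granzyme B protease of cytotoxic granules, ran from 0 through a median of 2.73 to 4420.3 CPM, and from 0 through a median of 125.8 to 15982 CPM in the others, with at least 10 reads in 9 of 65 (13.8%, 6.53% to 24.7%) against 54.1% (45.3% to 62.7%) of the others. Mean CPM was 5.63-fold lower, a ratio of -2.49, or -0.83 against the 20 cells without Cxcr5 and Cxcr6 reads. The chemokine gene Ccl4 was at -2.22, or -0.24 against those cells, and Ccl5 at -1.55, or -2.15 without the highest cell of each group, since 1 Cxcr5-high cell held 33.5% of the Ccl5 reads. Both chains of the IL-18 receptor were lower, Il18r1 in 5 against 38 cells and Il18rap in 6 against 52 cells with at least 10 reads. Serpinb6b and Serpinb9, inhibitors that shield cells from granzymes, were at -3.39 and -3.27, with the caution that both have close paralogs whose reads may be shared. Klrg1, a receptor of terminally differentiated effectors, had 0 reads in the Cxcr5-high cells and 1202 reads in the others. A floor of 3 reads over the group would be 189.3-fold below the others. This fold is not a lower bound, since reads are not independent molecules and those reads came from few cells, 12 with 10 or more.

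The Th1 master regulator was at a close level in both groups, while interferon gamma was lower in the Cxcr5-high cells. Tbx21, which encodes T-bet, was at 209.5 and 178.3 CPM, a ratio of 0.23, with 36 of 65 (55.4%) and 63.7% of the others at 10 or more reads. Ifng was lower in each set of wells (-1.08, -0.78 and -1.50), with 20 (30.8%) and 71 (52.6%) cells. Nkg7, a granule membrane protein, was at -0.87, and Eomes, a T-box factor, was the list's single gene past 2-fold in the other direction, with 10 or more reads in 3 and 8 cells and 48.1% of the reads in 1 cell. The list contains genes that the study itself singled out in IL-10-producing cells, Gzmb, Serpinb6b and Serpinb9 among them, so its direction is not independent evidence. Against the 20 cells without Cxcr5 and Cxcr6 reads, the list median was -0.19 and Ccl5 was at 0.98.

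Genes of type 1 regulatory T cells and co-inhibitory receptors were split. Of 15 that reached 10 CPM, 0 were at least 2-fold higher and 3 were lower (Havcr2, Entpd1 and Lilrb4), with a median of -0.41. Havcr2, which encodes the inhibitory receptor TIM-3, had at least 10 reads in 9 of 65 (13.8%, 6.53% to 24.7%) against 48.1% (39.5% to 56.9%) of the others, and its ratio of -1.78 was below 0 in each set of wells (-0.78, -2.62 and -1.71). Ctla4, found in nearly every cell of both groups, had means of 2370.1 and 4392 CPM (-0.89). Lag3 and Tigit, inhibitory receptors of exhausted and regulatory T cells, were nearly as universal, with 64 and 61 of the 65 cells and ratios of 0.44 and 0.31. Entpd1, the ATP-hydrolysing enzyme CD39, was at -1.14, while Nt5e, the next enzyme of that pathway (CD73), was at 0.86. Against the 20 cells without Cxcr5 and Cxcr6 reads the list median was 0.17 and Havcr2 was at 1.49, so both turned to above 0. The list also holds genes that the study singled out in IL-10-producing cells.

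Th2 and Th17 genes were mostly lower in the Cxcr5-high cells. Of 3 Th2 genes that reached 10 CPM, 3 were lower, among them Gata3, the Th2 master regulator, with at least 10 reads in 16 of 65 (24.6%) and 42.2% of the others and a ratio of -1.70. Of 8 Th17 genes that reached 10 CPM, 4 were lower (Ccr6, Aqp3, Tmem176a and Tmem176b) and 0 higher, but each had 10 or more reads in at most 14 of the cells without Cxcr5. The Th17 median was -1.86 and the Th2 median -1.70. Il17f, with a ratio of 3.75, had reads in 1 Cxcr5-high cell. Of 5 regulatory T cell genes at 10 CPM or more, Foxp3 left out, 1 was lower, the actin-capping gene Capg (-1.30), and Ikzf2, which encodes HELIOS, was at 0.97 but -0.60 in columns 1 to 12 of p1. The median of that list was -0.36. Among naive and central memory genes, Ly6c1 and Ly6c2 were lower, with the caution that they are near-identical copies, while the chromatin organiser Satb1 (0.72) and the kinase Txk (0.86) were under 2-fold higher.

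Cell cycle genes were lower. Of 16 proliferation genes, 12 were at least 2-fold lower and 0 higher, with a median of -1.69. Mki67, present in cycling cells, had at least 10 reads in 9 of 65 (13.8%, 6.53% to 24.7%) against 51.1% (42.4% to 59.8%) of the others. The size of the difference varied between sets of wells, with Mki67 ratios of -1.26, -8.23 and -0.81, and the list median on p2 was -0.55. Among the cells called G1, 58 and 92, the proliferation median was -2.53, with 8 of the genes at least 2-fold lower. Ratios of genes from earlier paragraphs were near those of all cells: 2.45 for Tcf7, 1.44 for Slamf6, 1.07 for Il21, -3.03 for Cxcr6, -2.73 for Id2 and -3.01 for Gzmb. In those cells 5.9% of the genes were at least 2-fold higher and 10.3% lower.

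Genes induced by T cell receptor signals had a median of 0.49, with 1 of 14 at least 2-fold higher and 1 lower. The higher gene was Nr4a1, an early reporter of receptor engagement, with a ratio of 1.25 (44.6% against 39.3% of cells with at least 10 reads). Egr1 (0.75) and Fos (0.77), immediate early factors, were under 2-fold higher, and Nr4a2 was lower with 2 and 13 cells. Of 15 interferon response genes, 5 were at least 2-fold higher (Isg15, Ifit1, Ifit3, Mx1 and Oasl2) and 0 lower, but their list median was -0.57, 1.49 and 0.17 in the 3 sets of wells. A few cells carried these reads: 1 cell held 54.2% of the Ifit3 reads and 58.4% of the Mx1 reads of the Cxcr5-high cells. Isg15, a ubiquitin-like protein, was the broadest, with 28 of 65 (43.1%) against 17.8% of the others and a ratio of 1.43, or 0.27 against the 20 cells without Cxcr5 and Cxcr6 reads. Glycolysis genes were level, with a median of -0.016 and 1 of 13, the glucose transporter gene Slc2a3, at least 2-fold lower.

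Ranked by ratio over all genes with the same sign in the 3 sets of wells, the 12 highest were H2-Q2, Igf1r, Synpo, Tcf7, Adk, Prmt3, Hsh2d, Bach2, Myb, Lif, Usp6nl and Dph7. Igf1r, the receptor for insulin-like growth factor 1, had at least 10 reads in 24 of 65 (36.9%, 25.3% to 49.8%) against 8.89% (4.68% to 15.01%) of the others, a ratio of 2.73. Myb, a transcription factor of stem-like T cells, had 22 and 27 cells (33.8% and 20%) and a ratio of 2.06. Adk, adenosine kinase, had 34 and 25 cells (2.29), and Prmt3, an arginine methyltransferase of ribosomal protein, 27 and 28 (2.28). Synpo, an actin-associated protein, and Hsh2d, an adaptor of lymphocyte signalling, were at 2.58 and 2.09. H2-Q2 belongs to a family of near-identical class I genes whose reads cannot be told apart with certainty, so its ratio of 2.77, or 0.81 against the 20 cells without Cxcr5 and Cxcr6 reads, is uncertain.

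The 12 lowest were Cx3cr1, Adam8, Ccr2, Sv2c, Ttk, Ly6c2, Trp53i13, Serpinb6b, Padi2, Serpinb9, Kif4 and Kif23. Cx3cr1, the fractalkine receptor of effector T cells, had no read in the Cxcr5-high cells, 0 of 65 cells, and at least 10 reads in 17.04% (11.1% to 24.5%) of the others. A floor of 3 reads over the group would be 678-fold below the others. Reads are not independent molecules, so this fold is not a lower bound on the difference. Adam8, a membrane metalloprotease, had at least 10 reads in 0 and 28 cells. Sv2c, a synaptic vesicle protein, had at least 10 reads in 6 of 65 (9.23%, 3.46% to 19.02%) against 48.9% (40.2% to 57.6%) of the others and a ratio of -4.27. Padi2, an enzyme that converts arginine to citrulline, had 5 and 47 cells (-3.29). Ttk, Kif4 and Kif23 act in mitosis, and among cells called G1 their ratios were -2.57, -2.76 and -1.31. Both Adam8 (0.075) and Sv2c (0.71) turned to above 0 against the 20 cells without Cxcr5 and Cxcr6 reads.

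**Figure D3:**
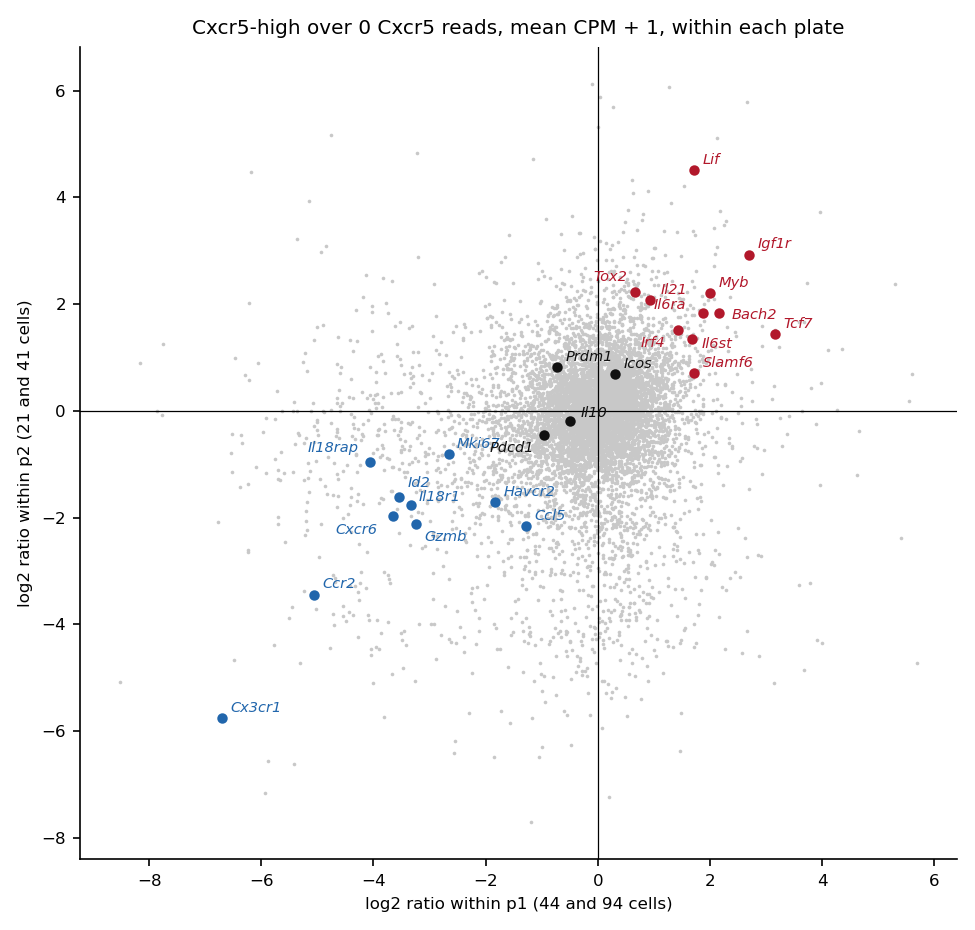
Each point is 1 of the genes tested, without Cxcr5, with its log2 ratio within p1 on the x axis and within p2 on the y axis, red for named genes at least 2-fold higher, blue for those at least 2-fold lower and black for those under 2-fold. The red genes lie in the upper right and the blue genes in the lower left, and Prdm1 lies below 0 on p1 and at 0.82 on p2.

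The Cxcr5-high cells were divided at their median number of Cxcr5 reads into 32 cells below it and 33 at or above it, whose median depths were 342662 and 348622 reads. Cxcr5 reads had also chosen the cells, so the values of the 2 parts are a description and were not tested. Tcf7 had at least 10 reads in 56.2% (37.7% to 73.6%) of the lower and 72.7% (54.5% to 86.7%) of the upper cells, Bach2 in 15.6% (5.28% to 32.8%) and 45.5% (28.1% to 63.6%), and Il6ra in 34.4% (18.6% to 53.2%) and 60.6% (42.1% to 77.1%). Cxcr6 had at least 10 reads in 31.2% (16.1% to 50.01%) and 6.06% (0.743% to 20.2%), Id2 in 46.9% (29.1% to 65.3%) and 15.2% (5.11% to 31.9%), and Gzmb in 25% (11.5% to 43.4%) and 3.03% (0.0767% to 15.8%). The intervals of the 2 parts overlap for each of these 6 genes. Shares were closer for Il21 (81.2% and 78.8%), Irf4 (50% and 45.5%), Cxcr3 (56.2% and 51.5%) and Sh2d1a (50% and 51.5%). The 37 cells with 1 to 9 Cxcr5 reads had Tcf7 in 24.3% (11.8% to 41.2%), Cxcr6 in 67.6% (50.2% to 81.99%), Id2 in 91.9% (78.1% to 98.3%) and Tox2 in 40.5% (24.8% to 57.9%).

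**Figure D4:**
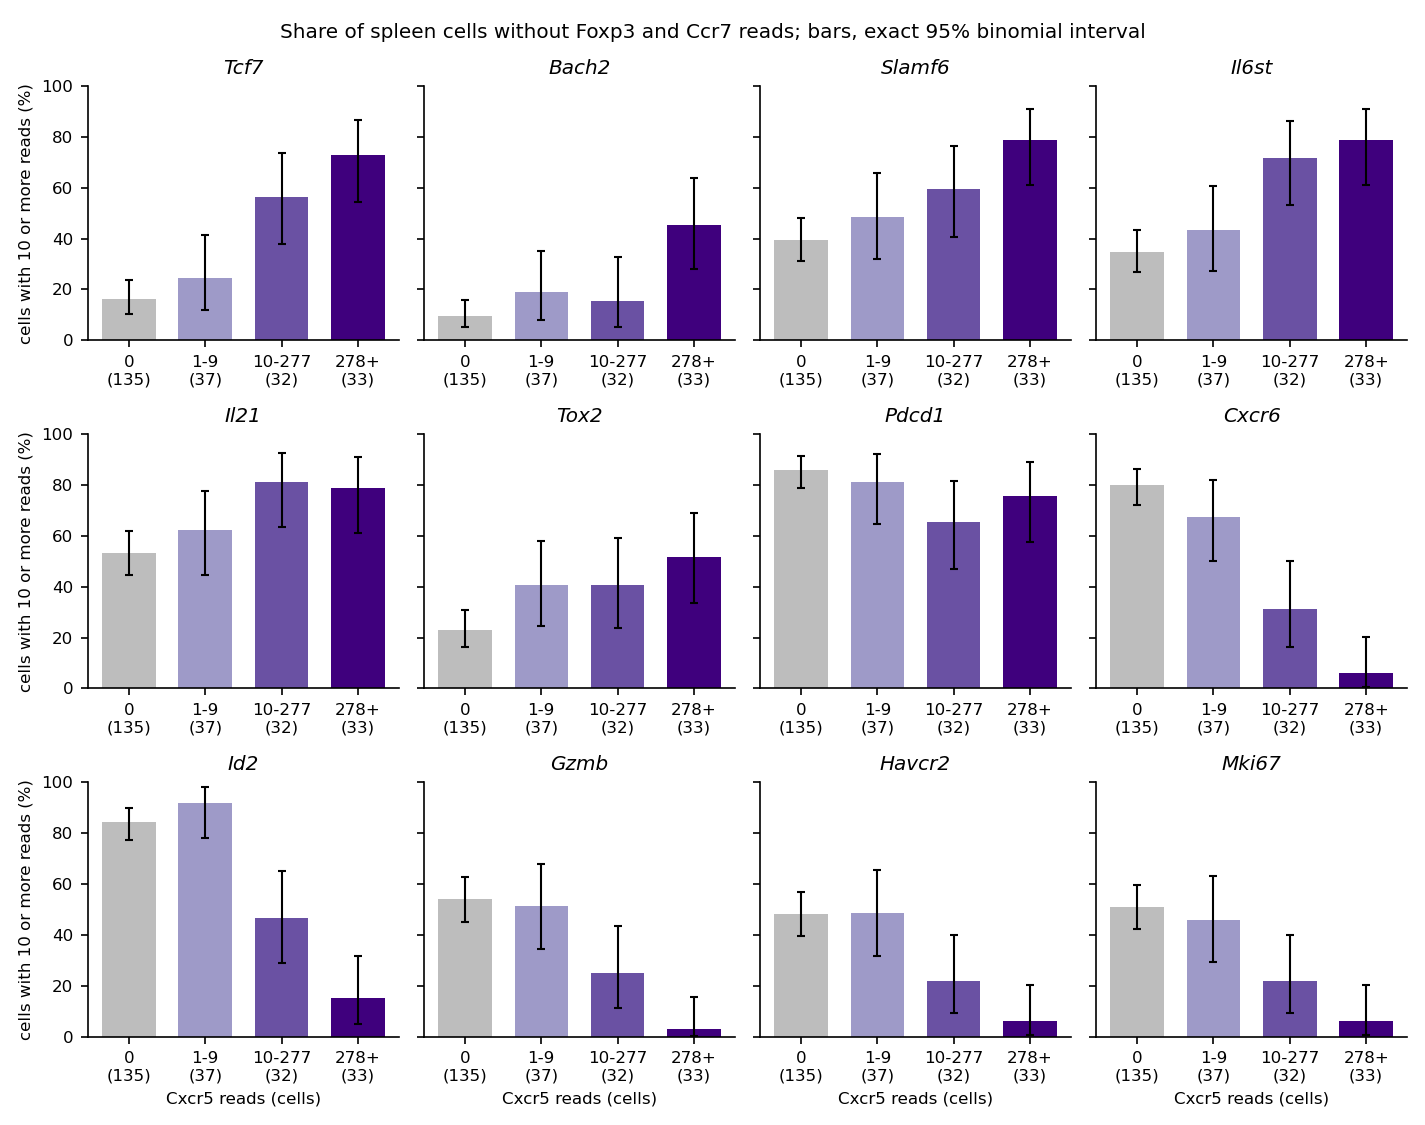
Bars give the percent of spleen cells without Foxp3 and Ccr7 reads that had at least 10 reads of a gene, by Cxcr5 reads on the x axis (number of cells in brackets), with exact 95% binomial intervals. Shares of Cxcr6 were 80%, 67.6%, 31.2% and 6.06% from no Cxcr5 read to the highest group, and those of Tcf7 were 16.3%, 24.3%, 56.2% and 72.7%.

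Tcf7 and Cxcr6 were seldom found in the same Cxcr5-high cell, and Cxcr6 was itself infrequent in these cells. With at least 10 reads as the limit, 3 of 65 cells carried both, 39 Tcf7 only, 9 Cxcr6 only and 14 neither. Of the cells without Cxcr5, 13 carried both, 9 Tcf7 only and 95 Cxcr6 only. Cxcr6 was thus found in 7.14% of the Cxcr5-high cells with Tcf7 and in 39.1% of those without it. In the cells without Cxcr5 these shares were 59.1% and 84.1%. Il21 was found in the Cxcr5-high cells with Tcf7 at a share near that in those without it, 34 of 42 (80.95%) against 18 of 23 (78.3%). Among the cells without Cxcr5 it was found in 4 of the 22 with Tcf7 (18.2%) and in 60.2% of those without it. Il21 and Tox2 were found together in 25 of 65 and 14 of the others, and Il21 and Pdcd1 in 37 of 65 and 65 of the others. These counts describe cells of 1 sample and were not tested.

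Cxcr5 was not confined to these cells. At least 10 reads were found in 63 spleen cells with a Foxp3 read and no Ccr7 read (40.9% of these) and in 66 with a Ccr7 read and no Foxp3 read (49.6%). In the small intestine 0 cells reached 10 reads, a limit of 1.71% at 3 counts, and the highest value there was 5 reads. Tcf7 had at least 10 reads in 64.6% of the Cxcr5-high cells, 80.3% of the Cxcr5 cells that carried Ccr7 and 4.76% of those that carried Foxp3. It was also found in 74.1% of the 54 cells with a Ccr7 read and no Cxcr5 or Foxp3 read, of which 81.5% carried Slamf6 and 51.9% Il6ra, so none of these 3 genes was seen only with Cxcr5. Shares in the same 54 cells were 33.3% for Bach2, 22.2% for Cxcr6, 20.4% for Gzmb and 12.96% for Havcr2. These were near the shares given above for the Cxcr5-high cells, so these traits were not particular to them. Id2 (51.9%) and Mki67 (40.7%) lay between the Cxcr5-high cells and the cells compared with them. Of these groups, Il21 was most frequent in the Cxcr5-high cells: at least 10 reads were found in 80% of the Cxcr5-high cells, 34.8% of the Cxcr5 cells with Ccr7, 19.05% of those with Foxp3, 37.04% of the Ccr7 cells without Cxcr5 and 32% of small intestine cells. Spleen cells without Foxp3 and Ccr7 reads were nearer, with Il21 in 53.3% at 0 Cxcr5 reads and 62.2% at 1 to 9. High Il21 shares were thus not particular to the Cxcr5-high cells. Tox2 had the same order among the 3 kinds of Cxcr5 cell, at 46.2%, 22.7% and 7.94%, but reached 49.1% in the small intestine. Il10 was found in 81.5%, 43.9% and 100%, which puts the Cxcr5-high cells between the other 2.

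**Figure D5:**
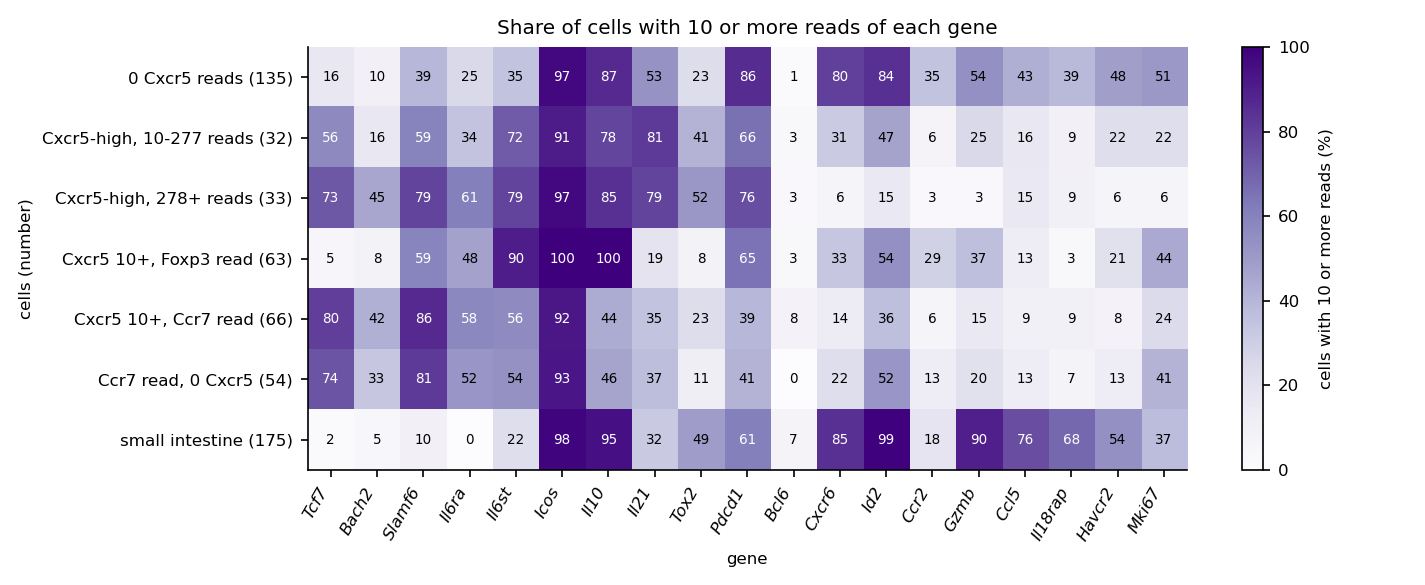
Each box gives the percent of cells with at least 10 reads of the gene named on the x axis, for the group of cells on the y axis (number of cells in brackets), with darker purple for a higher share. Both parts of the Cxcr5-high cells combine Il21 shares of 81.2% and 78.8% with Tcf7 shares of 56.2% and 72.7%, while the small intestine row shows 1.71% for Tcf7 and 89.7% for Gzmb.

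Markers of other cell types were low in the Cxcr5-high cells. All 7 CD4 T cell genes tested, Cd3e and Cd4 among them, were detected in both groups, and their summed level ran from 5979 to 19320.3 CPM in the Cxcr5-high cells and from 4241 to 16688 CPM in the others. Of 14 B cell genes, 7 had a read in the Cxcr5-high cells, Ms4a1, Cd79b and Pax5 were at 0, and the summed level ran from 0 to 521.1 CPM. In the cells without Cxcr5, 13 had a read and the sum ran up to 35067 CPM, with 87.2% of the Cd74 reads in 1 cell. Of 11 myeloid genes, 5 had a read in the Cxcr5-high cells and Lyz2, Cd14, S100a8 and Itgax were at 0, with a highest sum of 661 CPM against 875 CPM. Of 8 CD8, NK and innate-like genes, 4 had a read, with Zbtb16, Tyrobp and Fcer1g at 0 and a highest sum of 919 against 1389 CPM. Haemoglobin and glycophorin genes were at 0 in both groups. Without cells that had 10 or more reads over the B cell list, the Tcf7, Il21, Tox2 and Cxcr6 ratios were 2.44, 0.94, 0.91 and -3.25, which puts both Il21 and Tox2 under 2-fold.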

How the data were processed

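Single IL-10+ CD4+ T cells were sequenced with SMART-seq2, 574 from spleen and 190 from small intestine. The deposited tables hold counts, whole numbers of reads per gene and cell. The submitters' processing notes name STAR and mm10, whereas the methods name Mm8, and the counting tool is not given in the sources used here. Without unique molecular identifiers, reads are not independent molecules. Spleen cells with at least 160000 reads over 23997 gene rows were kept (544), of which 237 had no Foxp3 or Ccr7 read, 65 were Cxcr5-high and 135 had no Cxcr5 read (162801 to 622997 reads in the compared cells), reads were scaled to CPM per cell, means were compared as log2 with 1 CPM added, and genes needed a mean of at least 10 CPM over both groups. Rows joining several genes and the eGFP reporter row were not ranked. Ranked genes also needed a read in at least 25% of cells of the higher group and the same sign in 3 sets of wells, and 12 were named in each direction beside the members of gene lists. The cells and lists were chosen with earlier results of these data known. Each tissue is 1 sample, so no test was made and edgeR 4.0.16 and DESeq2 1.42.0 served only for scaling alternatives. Cell cycle calls used cyclone in scran 1.30.0 (R 4.3.3), and other steps pandas 2.3.3 and scipy 1.17.1. The ratio step was tested on simulated data. Doublets were not called. Some genes of the lists are not reported here.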

Additional observations from a re-analysis of the deposited data

Results flagged for a closer look

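Cxcr5 also appeared in cells that the comparison did not use. At least 10 Cxcr5 reads were found in 40.9% of spleen cells with a Foxp3 read and no Ccr7 read, in 49.6% of those with a Ccr7 read and no Foxp3 read, and in 45% of those with both, while 0 small intestine cells reached that number. The eGFP reporter, a row outside the gene counts, had a read in 63.1% of the Cxcr5-high cells and 61.5% of the cells without a Cxcr5 read.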

How the results depend on the processing

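Of 56 named genes under 22 alternatives, 52 had no change of sign under the alternatives planned at the start. Shares of genes at least 2-fold higher and lower were 2.52% and 6.68% with 10 CPM added, 2.98% and 6.08% with a mean of at least 50 CPM, 1.64% and 3.47% without the limit on Foxp3 and Ccr7, 8.87% and 15.9% on p1, 11.8% and 17.2% on p2, 17.7% and 25.6% in columns 1 to 12 of p1 and 11.3% and 19.3% in columns 13 to 24. The mean of log2 values over cells, where the median of all genes was -0.33, gave 1.68% higher, and members with at least 1 Cxcr5 read gave 5.79% lower. The median of the follicular markers was 1.11 without the filter (Cxcr5 left out), 0.27 without the Foxp3 and Ccr7 limit and 1.13 on p2. That of the opposing genes was -0.95 for the mean of log2 values. The Th1 median was -0.31 with at least 1 Cxcr5 read, -1.67 without the Foxp3 and Ccr7 limit and -0.36 in columns 1 to 12. The co-inhibitory median was -0.25 without the filter, -0.21 for summed reads, -0.64 for the mean of log2 values, -0.21 and -0.55 with at least 1 and 50 Cxcr5 reads, -0.19 without the Foxp3 and Ccr7 limit, -0.30 on p1, -0.19 on p2, -0.064 and -0.16 in the 2 parts of p1, -0.34 in cells with an Il10 read, -0.54 without B cell list cells and -0.33 against cells with 0 to 9 Cxcr5 reads. Among genes, Sh2d1a (-0.032) and Tigit (-0.047) turned for the mean of log2 values and Cxcr3 (-0.020) and Prdm1 (0.82) on p2. Against the 20 cells without Cxcr5 and Cxcr6 reads, chosen after seeing the data, 14.995% of genes were higher, the Th1 median was -0.19 and the co-inhibitory median 0.17, and ratios were -0.38 for Sh2d1a, 0.24 for Pdcd1, 0.075 for Adam8, 0.71 for Sv2c, -0.032 for Slamf6, -0.12 for Btla, 0.98 for Ccl5, 1.49 for Havcr2 and 0.20 for Prdm1. Of 45 named genes at least 2-fold apart, 14 were not so against these 20 cells, among them Tcf7 (0.54), Bach2 (0.67), Il6ra (0.38), Il6st (0.55), P2rx7 (0.87), Gzmb (-0.83) and Ccl4 (-0.24). Without the Foxp3 and Ccr7 limit Il21 (0.48), Tox2 (0.25), Slamf6 (0.69) and P2rx7 (0.55) were under 2-fold, as were, with at least 1 Cxcr5 read, Il21 (0.87), Tox2 (0.87), Cxcr6 (-0.94), Gzmb (-0.39), Ccl5 (-0.66) and Havcr2 (-0.52). The cause of these shifts was not tested. No paired analysis was possible because no test was made and wells share only numbers. Precision is limited by 65 cells of 1 sample.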
